A study of Mus musculus with 6 samples.

Results

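The serpins are a family of proteins that share 1 fold, and most of them block serine proteases by trapping the protease on an exposed loop. The genes described here are those whose symbol starts with Serpin, a clade letter from a to i and a number. For each gene, the probe set (a group of array probes read as 1 value) that names that gene alone was used, and where several did, the one with the highest mean over the 6 arrays. This gave 54 serpin genes among 22180 genes measured. A RefSeq table of mouse genes lists 69 symbols of this form, and the other 15 were not analysed here.

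The samples were 6 livers of male C57BL/6 mice, each on 1 Affymetrix array. There were 3 livers expressing Sonic Hedgehog (SHH, mice 26, 28 and 31), the secreted ligand that starts Hedgehog signalling, and 3 livers expressing green fluorescent protein (GFP, mice 6, 13 and 21), a protein with no signalling role that stood as the control. The series' design text describes hydrodynamic transfection, in which DNA is injected fast in a large volume and taken up mainly by hepatocytes, and a measurement of fibrosis and of genes related to it. All 6 mice thus carried an introduced gene, and no uninjected liver was analysed. The labels state neither the age of the mice nor the promoter that drives the introduced gene, and they list no other treatment.

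The liver makes most of the serpins of blood plasma. Alpha-1-antitrypsin protects tissue from neutrophil elastase, antithrombin and heparin cofactor II restrain thrombin, alpha-2-antiplasmin restrains plasmin, and C1 inhibitor restrains complement and contact proteases. Some members inhibit nothing: thyroxine-binding globulin and corticosteroid-binding globulin carry hormones, and Hsp47 folds collagen. Most clade B members stay inside cells, and several of them shield cells from granule proteases. Several plasma serpins belong to the acute phase response, the change in liver secretion during inflammation.

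Values are log2 signals, and a difference is the mean of the SHH livers minus the mean of the GFP livers, so that 1 is a doubling. Array medians lay between 4.32 and 4.40. No gene of the 22180 passed the Benjamini-Hochberg threshold of 0.05 (limma, 0% called), while unadjusted p values under 0.05 were found for 738 genes that were higher and 889 that were lower. No serpin therefore passed over all genes, and unadjusted p values below are descriptive. SHH 26 stood closer to the GFP livers than the other SHH livers did in the acute phase genes: the mean of 24 such genes that are not serpins lay 0.46, 2.11 and 1.57 above the GFP mean in SHH 26, 28 and 31, against -0.09, -0.04 and 0.13 in GFP 6, 13 and 21. Macrophage markers (9 of 9 means higher, 6 with an unadjusted p under 0.05, median 0.67), stellate cell markers (9 of 9, 2, median 0.16), B and plasma cell markers (6 of 6, 2, median 0.20) and platelet markers (4 of 4, 0, median 0.23) had higher means in SHH livers, and their part in the serpin values was not tested. Endothelial (0 of 6 means higher, median -0.12), bile duct (1 of 4, median -0.02) and squamous epithelium markers (0 of 4, median -0.19) did not. The macrophage list mean was 7.40, 7.56 and 8.43 in SHH 26, 28 and 31. In GFP 6, 13 and 21 it was 7.59, 6.75 and 6.71, so the groups overlapped. Only 1 of the 9 macrophage genes had no overlap. The platelet list means overlapped too, with GFP 21 (4.73) above SHH 26 (4.54). Those of the stellate cell list and of the B and plasma cell list did not overlap. The hepatocyte markers stood at 12.67 to 12.80 in SHH livers and 12.71 to 12.78 in GFP livers (means of 8 genes, whose median difference was 0.01). These genes had mean levels of 12.02 to 13.69, among the brightest measured, where array signals can flatten and hide a change. In whole liver, fewer cells of a type and less RNA per cell cannot be told apart.

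The serpins split into 23 genes above the median of the array medians (4.37) and 31 below it. Among the 54, 26 had higher and 28 lower means in SHH livers (48.1% higher, against 43.8% of all genes). Of all genes above the array median, 45.3% had higher means. The median difference of the serpins was -0.01, against -0.03 for all genes. At an unadjusted p under 0.05, 5 serpins were higher (9.26%, against 3.33% of all genes) and 4 were lower (7.41%, against 4.01%). All 3 SHH values lay above all GFP values for 6 serpins (11.1%, against 5.26% of all genes) and below them for 3 (5.56%, against 7.25%). The 5 higher genes were Serpina7, Serpina3n, Serpina10, Serpina11 and Serping1, all above the array median. Among the 23 above that median, 5 were higher (21.7%, against 4.22% of all genes above it) and 2 lower (8.7%, against 3.73%) at that p, and 6 lay above (26.1%, against 6.58%) and 1 below (4.35%, against 7.34%) without overlap. The 4 lower ones were Serpinb1a and Serpina12, above the array median, and Serpinb9f and Serpini2, below it. The count of 5 of 54 became 2 without SHH 28, GFP 6 or GFP 13 and 3 without SHH 31 or GFP 21. In those fits 2.73% to 3.16% of all genes were higher at that p. The count of 4 became 2 without GFP 6 or GFP 13, where 3.31% and 2.85% of all genes were lower.

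**Figure D1:**
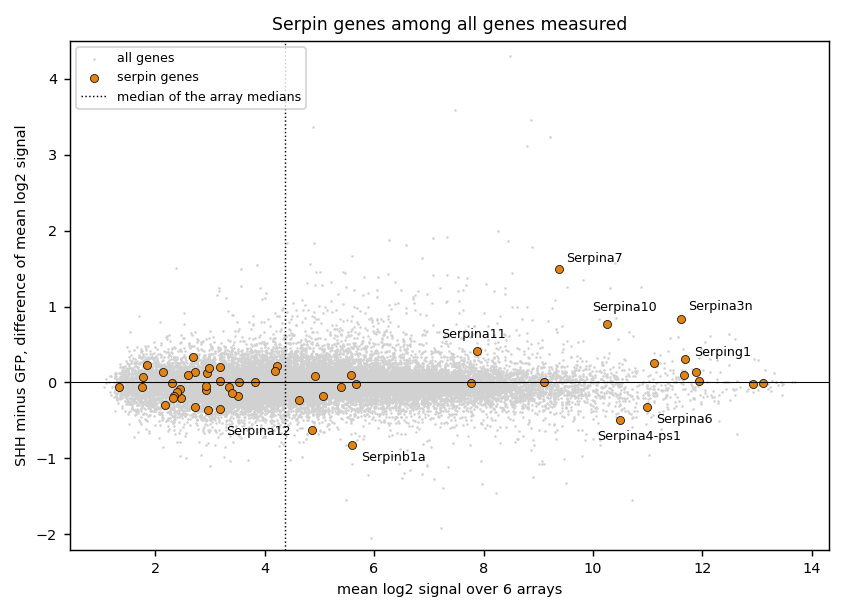
Each orange point is 1 of the 54 serpin genes and each grey point 1 of 22180 genes, with the mean log2 signal over 6 arrays on the x axis and the SHH minus GFP difference on the y axis. The dotted line marks the median of the array medians, 4.37. Serpina7 stands highest among the serpins at 1.50, and Serpinb1a lowest at -0.82.

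The largest serpin difference was that of Serpina7, which encodes thyroxine-binding globulin, a carrier of thyroid hormone in blood that inhibits no protease. Its log2 signal was 9.35, 10.80 and 10.25 in SHH 26, 28 and 31, against 8.70, 8.46 and 8.74 in GFP 6, 13 and 21. Every SHH liver was above every GFP liver, and SHH 28 was highest. The means were 10.13 ± 0.73 in SHH livers and 8.64 ± 0.15 in GFP livers (SD, n = 3 each), a difference of 1.50 with a 95% interval of 0.79 to 2.20, or 2.82-fold (limma, unadjusted p = 0.000982, adjusted p = 0.409). Serpina7 ranked 50th of all genes by p. Without SHH 26 the difference was 1.89 and passed over all genes (limma, adjusted p = 0.0141), which no serpin did under any other setting tried. In that fit 30 genes were called higher and 16 lower of 22180, against 0 in each other setting at that threshold. The gene is the 1 member on chromosome X and has no serpin neighbour among those measured.

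Serpina3n encodes a secreted inhibitor of the antichymotrypsin type and is a well-known acute phase gene of mouse liver. It stood at 11.54, 12.63 and 11.92 in SHH 26, 28 and 31, against 11.20, 11.16 and 11.23 in GFP 6, 13 and 21. The GFP livers were nearly equal (11.20 ± 0.04, SD, n = 3), while the SHH livers spread widely (12.03 ± 0.56, SD, n = 3) and all lay above them. The difference was 0.83, with a 95% interval of 0.28 to 1.38, or 1.78-fold (limma, unadjusted p = 0.00790, adjusted p = 0.521). It became 0.53 without SHH 28 and 1.08 without SHH 26. Of the other 4 measured members of the Serpina3 cluster, Serpina3a, Serpina3b, Serpina3i and Serpina3j, none exceeded 3.76 in any liver, below every array median, and their differences ran from -0.18 to 0.20. The brightest of them, Serpina3b, was 3.63, 3.70 and 2.95 in SHH livers against 3.33, 3.73 and 3.76 in GFP livers, with overlap. Serpina3 genes are close relatives, so part of a signal may come from a neighbour that was not analysed here.

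Serpina10 encodes the protein Z-dependent inhibitor of factor Xa and lies at the far end of the same gene cluster. Its signal was 9.96, 11.42 and 10.54 in SHH livers (26, 28 and 31), against 9.73, 9.88 and 10.01 in GFP livers (6, 13 and 21). The groups overlapped, because SHH 26 was below GFP 21. The difference of 0.77 (95% interval 0.06 to 1.48, 1.70-fold; limma, unadjusted p = 0.0360, adjusted p = 0.662) became 0.38 without SHH 28. Serpina11, a clade A member made in liver, was 7.96, 8.45 and 7.87 in SHH livers against 7.61, 7.75 and 7.68 in GFP livers, so the groups did not overlap. It differed by 0.41 (1.33-fold; limma, unadjusted p = 0.0346, adjusted p = 0.662), and by 0.24 without SHH 28.

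The letters just before the start sites of Serpina7, Serpina3n and Serpina11 are shown because these genes were among the highest in their differences, beside those of an antitrypsin pair with differences near 0. Each window is the 250 bases before the start in RefSeq's GRCm38.p6 annotation, and RefSeq windows exist for 47 of the 54 serpins. Serpina10 and Serping1 had no window. Capitals mark matches on either strand to TTCNNNGAA (a form bound by STAT factors), TTGCNNAA (C/EBP factors) or the kB consensus (NF-kB), from 3 families of factors known from the acute phase response.
Serpina7, chrX:139085237-139085486, minus strand: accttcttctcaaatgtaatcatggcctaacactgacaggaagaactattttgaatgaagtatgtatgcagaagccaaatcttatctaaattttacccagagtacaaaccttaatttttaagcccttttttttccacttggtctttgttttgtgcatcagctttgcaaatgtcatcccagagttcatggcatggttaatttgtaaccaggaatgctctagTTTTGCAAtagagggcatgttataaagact
Serpina3n, chr12:104406458-104406707, plus strand: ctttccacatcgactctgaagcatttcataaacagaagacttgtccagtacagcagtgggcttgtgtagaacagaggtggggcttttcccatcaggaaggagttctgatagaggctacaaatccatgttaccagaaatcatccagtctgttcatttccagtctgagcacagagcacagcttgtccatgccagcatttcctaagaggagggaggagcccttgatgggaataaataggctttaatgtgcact
Serpina11, chr12:103989958-103990207, minus strand: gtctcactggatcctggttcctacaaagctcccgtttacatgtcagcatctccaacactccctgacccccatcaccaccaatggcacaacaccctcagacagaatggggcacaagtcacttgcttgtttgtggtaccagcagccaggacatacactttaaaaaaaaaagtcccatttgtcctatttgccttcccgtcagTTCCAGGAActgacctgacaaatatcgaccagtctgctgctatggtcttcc
Serpina1c, chr12:103904951-103905200, minus strand: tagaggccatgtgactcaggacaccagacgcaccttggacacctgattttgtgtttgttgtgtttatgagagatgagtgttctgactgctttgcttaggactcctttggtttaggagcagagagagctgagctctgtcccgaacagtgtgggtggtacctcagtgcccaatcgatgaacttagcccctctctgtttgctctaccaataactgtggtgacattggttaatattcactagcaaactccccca
Serpina1d, chr12:103773634-103773883, minus strand: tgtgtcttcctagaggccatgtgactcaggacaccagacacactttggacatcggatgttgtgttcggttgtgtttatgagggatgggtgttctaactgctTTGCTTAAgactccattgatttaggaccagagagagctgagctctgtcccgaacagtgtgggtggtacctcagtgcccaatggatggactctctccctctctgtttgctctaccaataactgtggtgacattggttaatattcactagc

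The capitals in the Serpina7 window are a C/EBP form match that starts 30 bases before the start site and 47 before another RefSeq start. The Serpina11 window holds 1 STAT form match, 51 bases before the start and 65 before another RefSeq start. The Serpina3n window holds no match to any of the 3 forms. Over all 32851 RefSeq windows of this length, 7.02% held the STAT form, 9.56% the C/EBP form and 5% the kB consensus. Among 55 windows of serpin genes the shares were 12.7%, 23.6% and 3.64%. By gene, 6, 11 and 2 of 47 serpins held a match. These windows are not independent, because Serpina7 and Serpina11 each have another, overlapping window with the same match. Serpina1b, Serpina1d and Serpina1e also carry the same C/EBP form letters in near copies. Serpina1d and its near copy Serpina1c differ in the C/EBP form, which Serpina1d has 149 bases before its start and Serpina1c lacks, while their differences between SHH and GFP livers were -0.02 and -0.01. A match is a run of letters, and neither a match nor its lack in a window tells of binding.

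The antitrypsin genes held the highest levels of the family, with differences near 0. Serpina1c, a mouse alpha-1-antitrypsin gene, was 13.14, 13.09 and 13.07 in SHH 26, 28 and 31, against 13.13, 13.10 and 13.12 in GFP 6, 13 and 21. Serpina1d was 12.99, 12.86 and 12.91 in SHH livers, against 12.92, 13.02 and 12.86 in GFP livers. In both genes the groups overlapped, with 95% intervals of -0.27 to 0.24 for Serpina1c and -0.29 to 0.25 for Serpina1d. Serpina1c lay above 99.9% of all genes, where array signals can flatten and hide a change. Serpina1e differed by 0.14 (95% interval -0.14 to 0.41), Serpina1a by 0.01, Serpina1b by -0.06 and the dim Serpina1f by 0.01. All 6 differences lay between -0.06 and 0.14, and 0 of 6 had an unadjusted p under 0.05. The start windows of Serpina1a to Serpina1e were 91.6% to 97% identical over their aligned parts in all 10 pairs. These genes are near copies, so the probe sets may share signal and the single levels are uncertain.

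**Figure D2:**
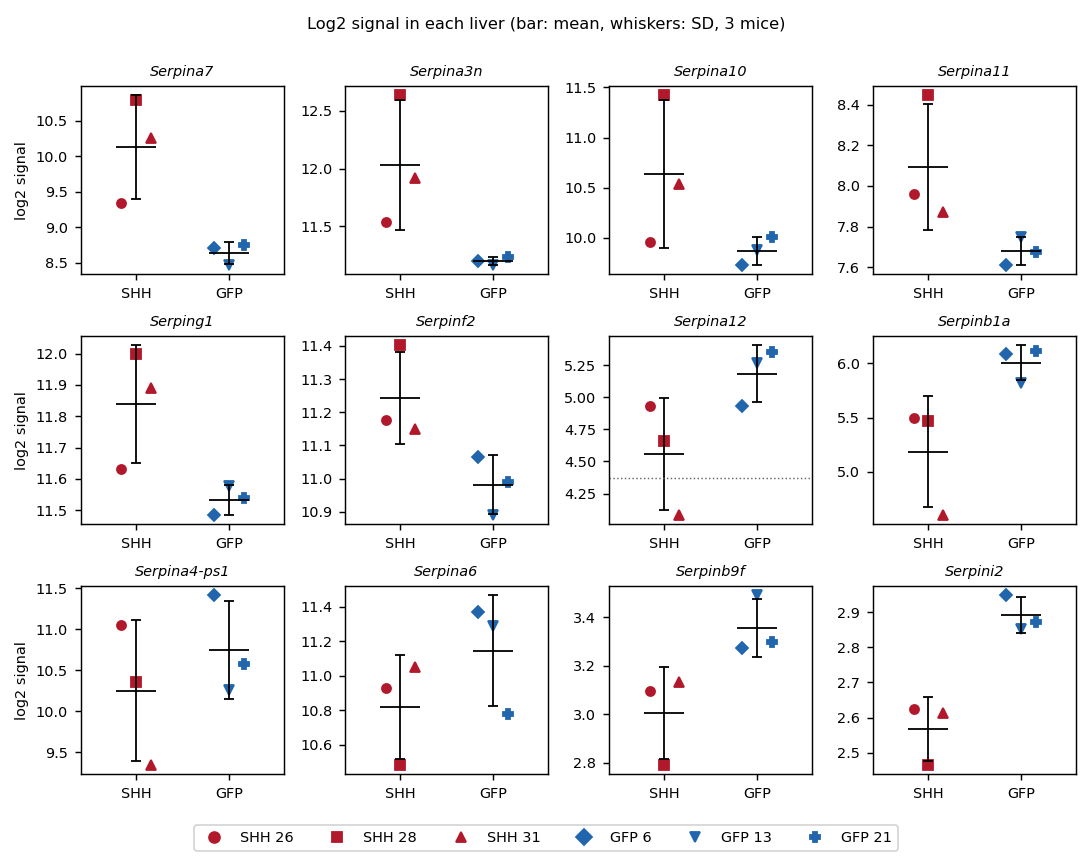
Log2 signal (y axis) of 12 serpins in each liver, SHH livers in red at left and GFP livers in blue at right, with the mean as a bar and the SD over 3 mice as whiskers. The y axes differ between genes, and the dotted line in the Serpina12 panel is the median of the array medians. In Serpina7, Serpina3n and Serping1 all SHH livers lie above the GFP livers with SHH 28 highest, and in Serpinb1a all lie below with SHH 31 lowest.

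The other hormone carrier ran the opposite way to Serpina7 in its mean. Serpina6, corticosteroid-binding globulin, which carries glucocorticoids, was 10.93, 10.48 and 11.05 in SHH livers against 11.37, 11.29 and 10.78 in GFP livers. The groups overlapped, with GFP 21 below SHH 26 and SHH 31, and the difference was -0.33 (95% interval -0.79 to 0.14; limma, unadjusted p = 0.145, adjusted p = 0.793). It became -0.16 without SHH 28, -0.21 without GFP 6 and -0.51 without GFP 21. Serpina6 and Serpina10 are neighbours at 1 end of the cluster and had means on opposite sides of 0. Angiotensinogen, which has the serpin fold under another symbol (Agt) and is the precursor of angiotensin, differed by 0.11 (95% interval -0.18 to 0.39).

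Serpina12, which encodes vaspin, an inhibitor of tissue kallikrein 7 known as a fat-derived hormone, was lower in SHH livers. Its signal was 4.94, 4.66 and 4.08 in SHH 26, 28 and 31, against 4.93, 5.27 and 5.35 in GFP 6, 13 and 21. SHH 26 was just above GFP 6, and SHH 31 was the 1 liver below its array median. The difference of -0.63 (95% interval -1.13 to -0.13, 1.54-fold lower; limma, unadjusted p = 0.0199, adjusted p = 0.609) became -0.39 without SHH 31. Serpina4-ps1, a transcribed pseudogene next to it, had the widest spread of the family. It was 11.05, 10.36 and 9.34 in SHH livers against 11.42, 10.25 and 10.57 in GFP livers, with SDs of 0.86 and 0.60. Its difference of -0.50 had an interval of -1.46 to 0.46 and became -0.04 without SHH 31, -0.16 without GFP 6 and -0.90 without SHH 26.

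On chromosome 12, 19 measured clade A genes follow each other in the RefSeq order. The 11 of these genes above the array median were mixed with 8 dim ones, and genes with higher and lower means in SHH livers lay side by side. The outermost genes, Serpina10 and Serpina3n, had the highest differences, 0.77 and 0.83, and the antitrypsin genes between them lay near 0. Serpina11 (0.41) was separated from Serpina12 (-0.63) only by the dim Serpina9 (0.01). Serpina9 is known from germinal centre B cells, and the dim Serpina5 (-0.09) and Serpina16 (-0.04) completed the clade.

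**Figure D3:**
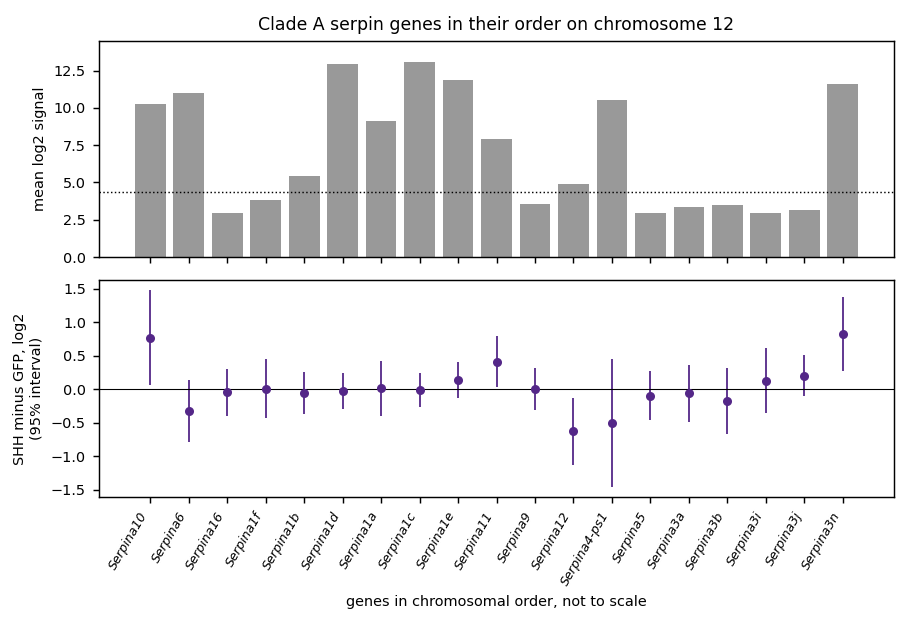
The 19 clade A serpin genes of chromosome 12 in the order of the RefSeq table, with bars of mean log2 signal over 6 arrays above and the SHH minus GFP difference with its 95% interval below; distances are not to scale. The dotted line is the median of the array medians. Differences at both ends of the cluster (Serpina10 and Serpina3n) are the highest, and those of the 6 antitrypsin genes lie between -0.06 and 0.14.

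Among the serpins that restrain clotting, the thrombin inhibitors had differences close to 0, below that of the factor Xa inhibitor Serpina10 (0.77). Serpinc1, antithrombin, was 11.97, 11.98 and 11.89 in SHH livers against 11.93, 11.94 and 11.92 in GFP livers, a difference of 0.02 (95% interval -0.24 to 0.27). Serpind1, heparin cofactor II, was 11.73, 11.71 and 11.67 in SHH livers against 11.65, 11.55 and 11.63 in GFP livers. Its groups did not overlap, yet the difference was only 0.09 (95% interval -0.17 to 0.35; limma, unadjusted p = 0.438). Of 7 measured coagulation proteases that such serpins act on, 6 had higher means, with a median of 0.14, and 1 had an unadjusted p under 0.05. That was F7, which starts the extrinsic pathway, at 9.88 ± 0.19 in SHH livers and 9.53 ± 0.05 in GFP livers (SD, n = 3 each; limma, adjusted p = 0.645).

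Serpinf2, alpha-2-antiplasmin, the fast inhibitor of plasmin, was 11.18, 11.40 and 11.15 in SHH 26, 28 and 31, against 11.07, 10.89 and 10.99 in GFP 6, 13 and 21. All SHH livers were above all GFP livers, by 0.26 in the mean (95% interval -0.03 to 0.55, 1.20-fold; limma, unadjusted p = 0.0728, adjusted p = 0.719). Its target's precursor Plg had a difference of 0.23, also with no overlap of the groups (limma, unadjusted p = 0.0859), and the matrix protein Vtn one of 0.29 (limma, unadjusted p = 0.0567). All 6 genes of the plasminogen system list had higher means, with a median of 0.18, and 0 had an unadjusted p under 0.05.

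Serping1, the C1 inhibitor, was 11.63, 11.998 and 11.89 in SHH livers (26, 28 and 31), against 11.48, 11.58 and 11.54 in GFP livers (6, 13 and 21). The groups did not overlap, but SHH 26 was only just above GFP 13. The difference was 0.31 (95% interval 0.0017 to 0.61, 1.24-fold; limma, unadjusted p = 0.0490, adjusted p = 0.677). The complement proteases it acts on had a median difference of -0.03 over 3 measured genes, with C1ra at 0.26 (limma, unadjusted p = 0.0930) and 0 past an unadjusted p of 0.05.

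Among members with roles in the matrix, Serpinh1 (Hsp47), which chaperones collagen in the cell, had nearly equal means. It was 5.44, 5.54 and 6.01 in SHH livers against 5.58, 5.77 and 5.69 in GFP livers, so that SHH 26 and SHH 28 were the lowest livers and SHH 31 the highest. The difference was -0.02 (95% interval -0.40 to 0.36). SHH 31 was also the highest liver for Col1a1, which encodes part of type I collagen, at 6.47, against 5.71 and 5.55 in the other SHH livers and 5.22 to 5.54 in GFP livers. Of 17 collagen and collagen-folding genes, 11 had higher means, with a median of 0.09, and 0 had an unadjusted p under 0.05. Serpinf1, pigment epithelium-derived factor, an anti-angiogenic protein that binds collagen, was 7.86, 7.79 and 7.68 in SHH livers against 7.82, 7.70 and 7.82 in GFP livers, a difference of -0.0048 (95% interval -0.28 to 0.27).

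In clade B, 5 of 25 genes lay above the array median. Serpinb1a, an inhibitor of neutrophil elastase, cathepsin G and proteinase 3, was 5.50, 5.47 and 4.60 in SHH 26, 28 and 31, against 6.08, 5.82 and 6.12 in GFP 6, 13 and 21. Every SHH liver was below every GFP liver, and SHH 31 was lowest. The means were 5.19 ± 0.51 in SHH livers and 6.01 ± 0.16 in GFP livers (SD, n = 3 each), a difference of -0.82 (95% interval -1.35 to -0.29, 1.76-fold lower; limma, unadjusted p = 0.00705, adjusted p = 0.521). Without SHH 31 it was -0.52. Its paralog Serpinb1c (0.22, near the array median) and the dim Serpinb1b (0.33) had higher means with intervals across 0.

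Serpinb1a is known in neutrophils as well as in liver, and the neutrophil markers ran the other way. All 9 had higher means in SHH livers, 5 of them with an unadjusted p under 0.05 and a median of 0.64, and the list mean was 3.83 to 4.93 in SHH livers against 3.51 to 3.71 in GFP livers, with 6 of the 9 below the array median. Of 10 granule proteases of leukocytes, 6 had higher means and 3 an unadjusted p under 0.05, with a median of 0.14. Of those that Serpinb1a acts on, the dim Ctsg (cathepsin G) differed by -0.02, and the others were among the 3, Prtn3 (proteinase 3) by 0.48 (limma, unadjusted p = 0.0360) and Elane (neutrophil elastase) by 0.45 (limma, unadjusted p = 0.0462). The groups overlapped in both Prtn3 and Elane, and 8 of the 10 proteases, Elane among them, lay below the array median. The part of cell makeup in the Serpinb1a difference was not tested.

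The other clade B genes above the array median had intervals that crossed 0. Serpinb9, the inhibitor of granzyme B, was 5.44, 5.39 and 6.07 in SHH livers against 5.88, 5.21 and 5.53 in GFP livers (difference 0.09, 95% interval -0.42 to 0.61). SHH 31 was highest for it, as it was for the T and natural killer cell markers, whose mean was 4.42, 4.22 and 4.79 in SHH 26, 28 and 31, against 4.05, 3.98 and 4.20 in GFP 6, 13 and 21 (7 genes, 6 with higher means and 2 with an unadjusted p under 0.05, median 0.42). SHH 31 was also the highest liver for the macrophage list (8.43), the stellate cell list (6.71) and the B and plasma cell list (5.37). GFP 6 came next for the macrophage list (7.59), as it did for Serpinb9. The part of any of these cell types in the Serpinb9 value was not tested. Gzma, a granzyme and the third of these proteases, differed by 0.80 (limma, unadjusted p = 0.0254). Its groups did not overlap, but it was dim (mean 3.94), and only SHH 31 (5.09) lay above its array median. Serpinb6a and Serpinb6b, relatives of a human inhibitor of cathepsin G, differed by -0.18 and 0.09, and Serpinb9b by -0.23 (limma, unadjusted p = 0.135), while its second, dimmer probe set differed by 0.015.

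The remaining 20 clade B genes lay below the array median in their means, from Serpinb1c and Serpinb8 near 4.2 down to Serpinb3a at 1.35. In this range 10 means were higher and 10 lower, with differences from -0.35 to 0.33. Serpinb9f was 3.09, 2.79 and 3.13 in SHH livers against 3.27, 3.49 and 3.30 in GFP livers, without overlap (-0.35; limma, unadjusted p = 0.0356, adjusted p = 0.662). Serpini2, a clade I gene known from pancreas, was 2.63, 2.46 and 2.61 in SHH livers against 2.95, 2.85 and 2.87 in GFP livers (-0.32; limma, unadjusted p = 0.0235, adjusted p = 0.617), while 2 of 8 pancreas markers had higher means, with a median of -0.05. The dim Cpb1 was the 1 pancreas marker with an unadjusted p under 0.05, and it was higher without overlap (0.36, limma, unadjusted p = 0.0264). All 6 Serpini2 values were under the lowest lower quartile of the arrays, 3.13, and signals so dim say little about expression. Serpini1, neuroserpin, was 2.73, 2.78 and 2.86 in SHH livers against 3.10, 3.49 and 2.85 in GFP livers, with SHH 31 just above GFP 21 (-0.36; limma, unadjusted p = 0.0640). Serpine3, a relative of plasminogen activator inhibitor 1, was 3.54, 3.24 and 3.23 in SHH livers against 3.41, 3.63 and 3.36 in GFP livers, with overlap (-0.13; limma, unadjusted p = 0.376). Serpinb5 (maspin), Serpinb2, which inhibits plasminogen activators, and the squamous cell genes Serpinb3a, Serpinb3c and Serpinb3d stayed below 2.9 in every liver.

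**Figure D4:**
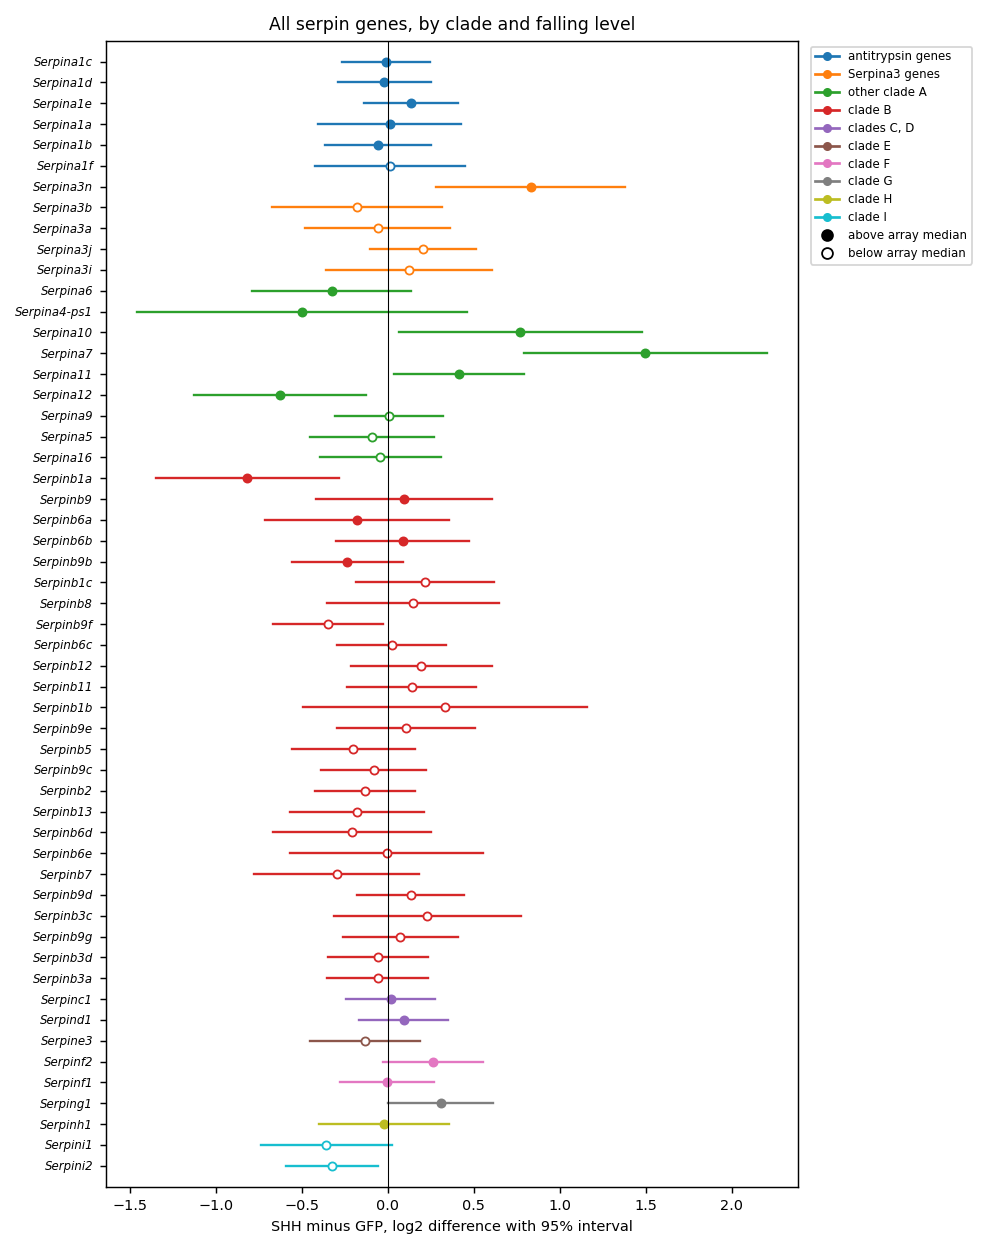
SHH minus GFP difference of mean log2 signal (x axis) with its 95% interval for all 54 serpins, grouped by clade from top to bottom and ordered by level within a group. Filled points lie above the median of the array medians and open points below it. The 5 intervals wholly above 0 belong to Serpina3n, Serpina10, Serpina7, Serpina11 and Serping1.

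The SHH livers were not alike in the serpins. Relative to the GFP mean, Serpina7 was 0.71, 2.16 and 1.62 higher in SHH 26, 28 and 31, and Serpina3n 0.33, 1.43 and 0.72 higher. Serpina10 (0.09, 1.55 and 0.67) and Serping1 (0.10, 0.47 and 0.36) had the same order of mice, which was also that of the acute phase list mean (0.46, 2.11 and 1.57). Of the 23 serpins above the array median, 5 had this order, against 15.3% of all genes above it, the fifth being Serpina1b with a difference of -0.06. Serpina11 departed from it, with SHH 31 (0.19) below SHH 26 (0.28). The acute phase list had 23 of 24 higher means and 20 with an unadjusted p under 0.05, with a median of 0.81.

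The 4 lower serpins did not share 1 order of mice. Serpinb1a (-0.51, -0.54 and -1.40 in SHH 26, 28 and 31) and Serpina12 (-0.25, -0.52 and -1.11) were lowest in SHH 31, as was Serpina4-ps1 (0.30, -0.39 and -1.41), whose groups overlapped. The dim Serpinb9f (-0.26, -0.57 and -0.22) and Serpini2 (-0.27, -0.43 and -0.28) were lowest in SHH 28, and so was Serpina6 (-0.22, -0.66 and -0.09). The mean of 14 male-biased liver genes, which depend on the pulsed growth hormone of males, had the order of Serpinb1a and Serpina12, at -0.22, -0.50 and -1.13, with 12 of the 14 means lower, 7 of them at an unadjusted p under 0.05, and a median of -0.51. This order was seen in 7 of the 23 serpins above the array median, against 18.1% of all genes above it; beside Serpinb1a, Serpina12 and Serpina4-ps1 these were Serpina1c, Serpina1e, Serpind1 and Serpinf1, with differences from -0.01 to 0.14. The spread was larger in SHH than in GFP livers for 17 of the 23 (73.9%), against 60.5% of all genes above the array median. These lists and orders were compared with results of these data known, and the values are descriptions.

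**Figure D5:**
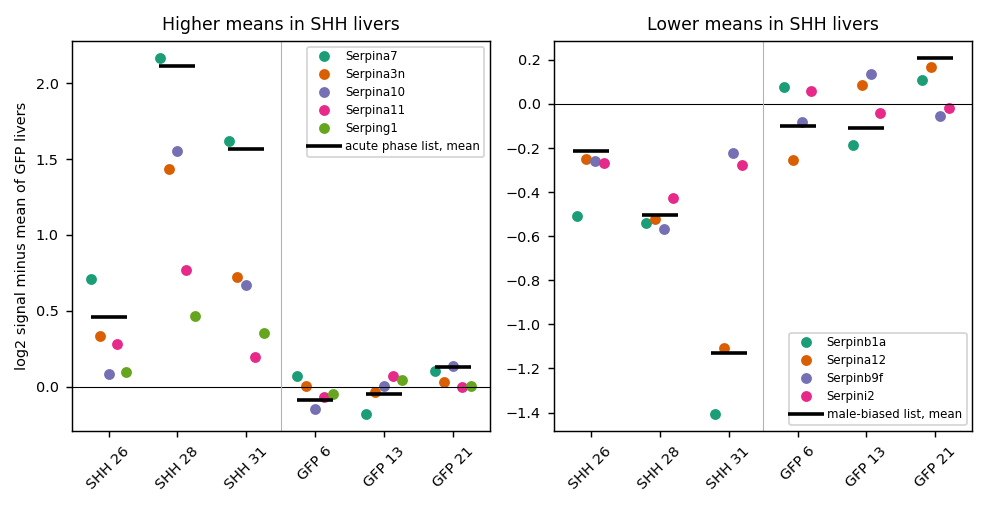
Log2 signal minus the mean of the GFP livers (y axis) for each liver, for 5 serpins with higher means in SHH livers at left and the 4 with lower means at an unadjusted p under 0.05 at right. Black bars are the mean of 24 acute phase genes (left) and of 14 male-biased genes (right). SHH 28 is farthest out for all 5 genes at left; at right SHH 31 is farthest out for Serpinb1a and Serpina12, and SHH 28 for Serpinb9f and Serpini2.

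Plasma protease inhibitors outside the serpin family were measured for comparison. Of 24 such genes, 16 had higher means, with a median of 0.16; 6 of the higher and 1 of the lower genes had an unadjusted p under 0.05. The largest difference was that of Itih3, a heavy chain of the inter-alpha-inhibitor complex that binds hyaluronan. Itih3 was 10.85, 11.98 and 11.72 in SHH 26, 28 and 31, against 10.09, 10.27 and 10.41 in GFP 6, 13 and 21, without overlap (2.40-fold; limma, unadjusted p = 0.00101, adjusted p = 0.409). Itih4 (0.61) and Itih1 (0.39) had no overlap either. Mug2, a murinoglobulin that traps proteases, was 1.51-fold higher (limma, adjusted p = 0.446), with SHH 28 the lowest of the SHH livers (11.56, against 11.99 and 11.98), unlike Serpina3n.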

How the data were processed

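The authors deposited 1 table of log2 signals, a column per array, made with RMA per the submitters' processing notes; RMA corrects background, equalises the arrays' distributions and summarises probe sets. The log2 scale was read from the range of the values, and neither the RMA version nor the probe set level is given in the sources used here. Per the labels' protocols, RNA came from Trizol extraction and was hybridised as biotinylated cRNA. Names came from the platform annotation: of 41345 probe sets, 23521 named 1 gene, 1814 several and 16010 none. Serpins had 55 single-gene probe sets, of which Serpinb9b had a second, dimmer one, and 2 probe sets naming several genes were not used. All 54 symbols equalled those of RefSeq by gene identifier.

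The fit used limma 3.58.1 under R 4.3.3 (lmFit, then eBayes; two-sided, with neither covariate nor filter) over 22180 genes, with Benjamini-Hochberg adjustment over all of them at 0.05. Intervals are 95% intervals of that fit. Permuting 3 mice against 3 exactly gives no p under 0.1, so no single gene was permuted. The number of arrays limits the precision, and dim probe sets understate a change. The labels name the mice but no batch. The eBayes step draws the variance of each gene toward a value common to all genes. The p values and intervals thus rest on the spread between these mice over all genes as well as in the gene itself. This widens the intervals of genes with little spread, such as Serpind1 (SDs 0.03 and 0.05, standard error of the difference 0.11). It narrows those of genes with wide spread, such as Serpina3n (SDs 0.56 and 0.04, standard error 0.24). Motifs and alignments were computed in Python 3.11.15 with Biopython 1.88.

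The members and the gene lists were chosen with earlier results of these data known. Values per liver are given for Serpina3n, for serpins with an unadjusted p under 0.05 or, above the array median, without overlap, and for the 2 highest of each clade group; other genes of the lists are named by their unadjusted p. The promoter motifs and the comparison of mouse orders were added after the data had been examined; a looser NF-kB form tried first matched Serpina3n, which the consensus did not. Alternatives were other probe set choices, normalizations, priors, array weights, thresholds and each mouse left out.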

Additional observations from a re-analysis of the deposited data

How the results depend on the processing

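No serpin passed the threshold over all genes in any setting except without SHH 26, where Serpina7 did, so that the count of called serpins ran from 0 to 1 over the 6 fits that leave out a mouse, while 30 genes higher and 16 lower of 22180 were called without SHH 26 and 0 in the other 5 fits. Over the same fits, 2 to 6 serpins were higher and 2 to 5 lower at an unadjusted p under 0.05. Of all genes, 2.73% to 4.08% were higher and 2.85% to 4.22% lower. The number of serpins without overlap ran from 7 to 9 above and from 5 to 9 below the GFP livers. Fewer mice overlap less often in any gene, and no share over all genes was taken for overlap in these fits. These counts therefore cannot be compared with those from all 6 mice. With only genes above the array median, 2 serpins were lower at an unadjusted p under 0.05 and 1 lay below without overlap, because the dim members were left out. The Serpina3n difference was positive in all 14 other settings, from 0.53 to 1.08, as was that of Serpina7, from 1.17 to 1.89, while Serpinb1a ran from -0.97 to -0.52. The Serpinb9b difference was 0.015 with its probe set of largest interquartile range. The median over serpins ran from -0.02 to 0.02. No paired analysis was possible because no mouse number occurs in both groups. Dim members, 31 of 54, limit what can be said of clade B.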
